A study of Mus musculus with 12 samples.

Results

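The AP-1 genes Fos, Fosb, Fosl2, Jun, Junb, Jund, Batf and Maff were followed across 12 arrays of mouse CD4+ T cells that carried the M354, M176 or wild-type (WT) form of Foxp3, the transcription factor that defines regulatory T cells (Tregs). The 8 genes were chosen by symbol from 16426 genes named in the array annotation, each has 1 probe set naming it alone, and all 8 were among the 8918 genes that passed the filter on dim signals. The filter asks for a signal above the median of the array on at least 2 arrays. Maff met it only through the 2 WT-transduced arrays, and Fosb only through the 6 Treg arrays, so a test of either gene against the arrays that let it through is not independent of the filter. The arrays, of the Affymetrix ST1.0 type, form 6 groups of 2. The Treg groups held DAPI- CD4+ CD25high cells from mice with the genotype Foxp3(M354/M354), Foxp3(M176/M176) or Foxp3(WT/WT). The transduced groups held conventional T cells of WT mice that received M354, M176 or WT Foxp3 by retrovirus in vitro, with DAPI- CD4+ Thy1.1high as their sort gate. Cells of both kinds were sorted in 2 rounds, and the mice are described as treated, with no treatment named. All 12 samples are labelled as spleen of male C57Bl/6 mice aged 6 weeks. The labels do not say which protein changes the names M354 and M176 stand for, and a transduction without Foxp3 is not analysed here. Whether the 2 arrays of a group stem from different mice or cultures is not stated in the labels, so the p-values measure only how far these samples differ, a spread that may be technical.

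AP-1 is a family of dimers built from basic leucine zipper proteins. Fos, Fosb and Fosl2 belong to the Fos branch, whose proteins bind DNA only together with a partner, usually of the Jun branch (Jun, Junb and Jund). Batf pairs with Jun proteins and works with Irf4 at composite sites in T cells, and Maff is a small Maf protein without a transactivation domain that pairs with CNC proteins such as Nfe2l2. Fos, Fosb, Jun and Junb are immediate early genes, switched on within minutes of T cell receptor or stress signals through MAP kinases. In T cells AP-1 cooperates with NFAT at cytokine genes such as Il2, and Foxp3 competes with AP-1 for NFAT.

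Signals were intensities on a linear scale, with a median per array between 101.5 and 117.4. Foxp3 was measured at 5991 and 5485 in M354 Tregs, 3442 and 3321 in M176 Tregs and 5913 and 5327 in WT Tregs, and lay between 5233 and 6163 on the transduced arrays. Cd3e, Cd4 and Il2ra were high on all 12 arrays, with none below 2998. Replicate 2 of the WT Tregs held B cell transcripts, with Cd79a at 399 against 93.8 in replicate 1, and all transduced arrays did so too, with Cd79a between 297 and 390. Not every B cell gene shared this: Cd79b, Cd22, Cd72 and Fcer2a were not above WT Treg replicate 1 on all transduced arrays. Cd72 was 399 in that replicate and between 182 and 246 on the transduced arrays. All 6 myeloid markers and all 3 erythroid markers on the table stayed below the array median throughout, as did 6 of 7 dendritic cell markers. The mean log2 level of 36 small nucleolar and Cajal body RNA genes (snoRNA level) was 9.98 and 10.04 in M176 Tregs and between 8.66 and 8.87 in the other Tregs. Among transduced cells each group had 1 array of higher snoRNA level: 9.64 against 8.75 with M354, 9.46 against 8.86 with M176 and 9.18 against 8.61 with WT Foxp3. In these bulk samples, fewer cells of a type and less RNA per cell cannot be told apart.

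Promoter windows of all 8 members were found in RefSeq (GRCm38.p6), each from 250 bases before to 50 bases after an annotated start, with 3 windows for Maff and 1 for each of the others. The windows of Fos, Jun, Junb and Maff are shown because these genes were lower together with M354 Foxp3 in transduced cells and because each holds a match to a motif searched. Capitals mark the matches.
Fos, chr12:85473640-85473939, plus strand: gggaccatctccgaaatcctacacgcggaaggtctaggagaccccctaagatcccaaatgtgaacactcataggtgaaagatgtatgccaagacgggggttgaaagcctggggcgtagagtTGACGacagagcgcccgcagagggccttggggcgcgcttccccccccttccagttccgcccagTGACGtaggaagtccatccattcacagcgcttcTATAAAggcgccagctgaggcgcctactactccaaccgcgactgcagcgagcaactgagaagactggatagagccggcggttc
Jun, chr4:95052173-95052472, minus strand: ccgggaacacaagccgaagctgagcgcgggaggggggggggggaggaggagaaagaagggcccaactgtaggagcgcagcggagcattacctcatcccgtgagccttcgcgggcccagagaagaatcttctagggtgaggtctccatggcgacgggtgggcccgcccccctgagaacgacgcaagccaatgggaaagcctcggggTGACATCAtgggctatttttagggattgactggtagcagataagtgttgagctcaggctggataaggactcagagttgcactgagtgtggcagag
Junb, chr8:84978699-84978998, minus strand: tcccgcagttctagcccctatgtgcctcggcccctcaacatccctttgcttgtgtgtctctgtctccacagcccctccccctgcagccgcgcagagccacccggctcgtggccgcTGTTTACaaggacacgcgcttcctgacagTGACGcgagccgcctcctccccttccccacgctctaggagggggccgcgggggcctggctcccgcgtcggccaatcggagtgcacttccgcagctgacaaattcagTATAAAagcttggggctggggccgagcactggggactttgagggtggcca
Maff, second of 3 windows, chr15:79347270-79347569, plus strand: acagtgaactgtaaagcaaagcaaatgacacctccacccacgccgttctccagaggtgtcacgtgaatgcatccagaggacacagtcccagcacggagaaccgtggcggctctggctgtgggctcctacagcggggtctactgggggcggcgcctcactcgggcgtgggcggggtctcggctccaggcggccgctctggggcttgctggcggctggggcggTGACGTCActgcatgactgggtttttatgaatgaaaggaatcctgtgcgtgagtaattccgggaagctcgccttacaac
A set of 7 motifs were searched on both strands, some of them chosen after the sequences had been seen: the AP-1 site TGANTCA, the cAMP response element (CRE) TGACGTCA, its variant TGACATCA, the CRE core TGACG, which also lies within TGACGTCA, the CArG box of serum response factor, TATAAA, and the forkhead motif TGTTTAC. The Fos window held TGACG at positions -129 and -66 and TATAAA at -33 from the start. The Jun window held TGACATCA at -45, and the Junb window held TGTTTAC at -135, TGACG at -106 and TATAAA at the start. The Maff window held the full TGACGTCA at -29. In the windows that are not shown, Fosb had TGACG at -60, Batf had it at -98, and the third Maff window had TGACATCA at -45 and TGACG on the minus strand at -122, while those of Fosl2 and Jund held no match. No member window held TGANTCA or a CArG box, but sites more than 250 bases before the start lay outside the search. Over all 32851 windows of the table, TGANTCA was found in 7.81%, TGACGTCA in 1.79%, TGACATCA in 3.62%, TGACG in 20.8%, the CArG box in 1.63%, TATAAA in 13.6% and TGTTTAC in 3.65%. These matches describe letters and not sites in use.

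In transduced cells, M354 Foxp3 went with lower levels of both main AP-1 branches than WT Foxp3. Fos, Fosl2, Jun, Junb and Maff fell, 5 of 8 members, while 0.976% of the 8918 genes tested were called lower. Maff passed the filter only through the WT-transduced arrays it is compared with here, and without it 4 of 7 members fell. No member rose, against 0.359% of genes called higher. Calls rest on limma, fitted over all genes and 12 arrays, at an adjusted p (Benjamini-Hochberg) under 0.05. The median log2 change of the members was -0.74, against 0.01 over all genes tested. Jun, the main partner of Fos proteins, had intensities of 763 and 904 in M354-transduced cells, against 1420 and 1380 in WT-transduced cells. Junb, a Jun protein that can oppose Jun, had 420 and 366 with M354, against 656 and 653 with WT Foxp3. In both genes the arrays of the groups lay well apart, and the log2 changes were -0.75 for Jun (SE 0.14, limma adjusted p = 0.00737) and -0.74 for Junb (SE 0.14, adjusted p = 0.0103). The third Jun gene, Jund, had 907 and 814 with M354, against 897 and 950 with WT Foxp3, so that its groups overlapped (log2 -0.10, 95% interval -0.41 to 0.21, limma adjusted p = 0.896).

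Among the Fos genes, Fosl2, whose protein lacks the strong activation domain of Fos, had 414 and 415 in M354-transduced cells, against 750 and 692 in WT-transduced cells (log2 -0.80, SE 0.15, limma adjusted p = 0.00861). Fos had 70.5 and 82.9 with M354, against 138 and 119 with WT Foxp3 (log2 -0.74, SE 0.13, adjusted p = 0.00737). Both genes were lower on each M354 array than on each WT array, but Fos with M354 lay below the array median, near percentile 42.9, where signals are dim. Fosb, a close relative of Fos, lay below the median in all 3 transduced groups, with 88.6 and 97.3 against 86.2 and 103 (log2 -0.02, 95% interval -0.32 to 0.29, adjusted p = 0.981). The small Maf gene Maff had 79.6 and 69.6 with M354, against 140 and 125 with WT Foxp3 (log2 -0.83, SE 0.15, adjusted p = 0.00737), with both M354 arrays below the array median. This test is not independent of the filter, which Maff passed through the WT-transduced arrays alone. Batf, the partner of Irf4, had 341 and 302 with M354, against 365 and 340 with WT Foxp3, and its groups overlapped (log2 -0.13, 95% interval -0.41 to 0.14, adjusted p = 0.819).

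**Figure D1:**
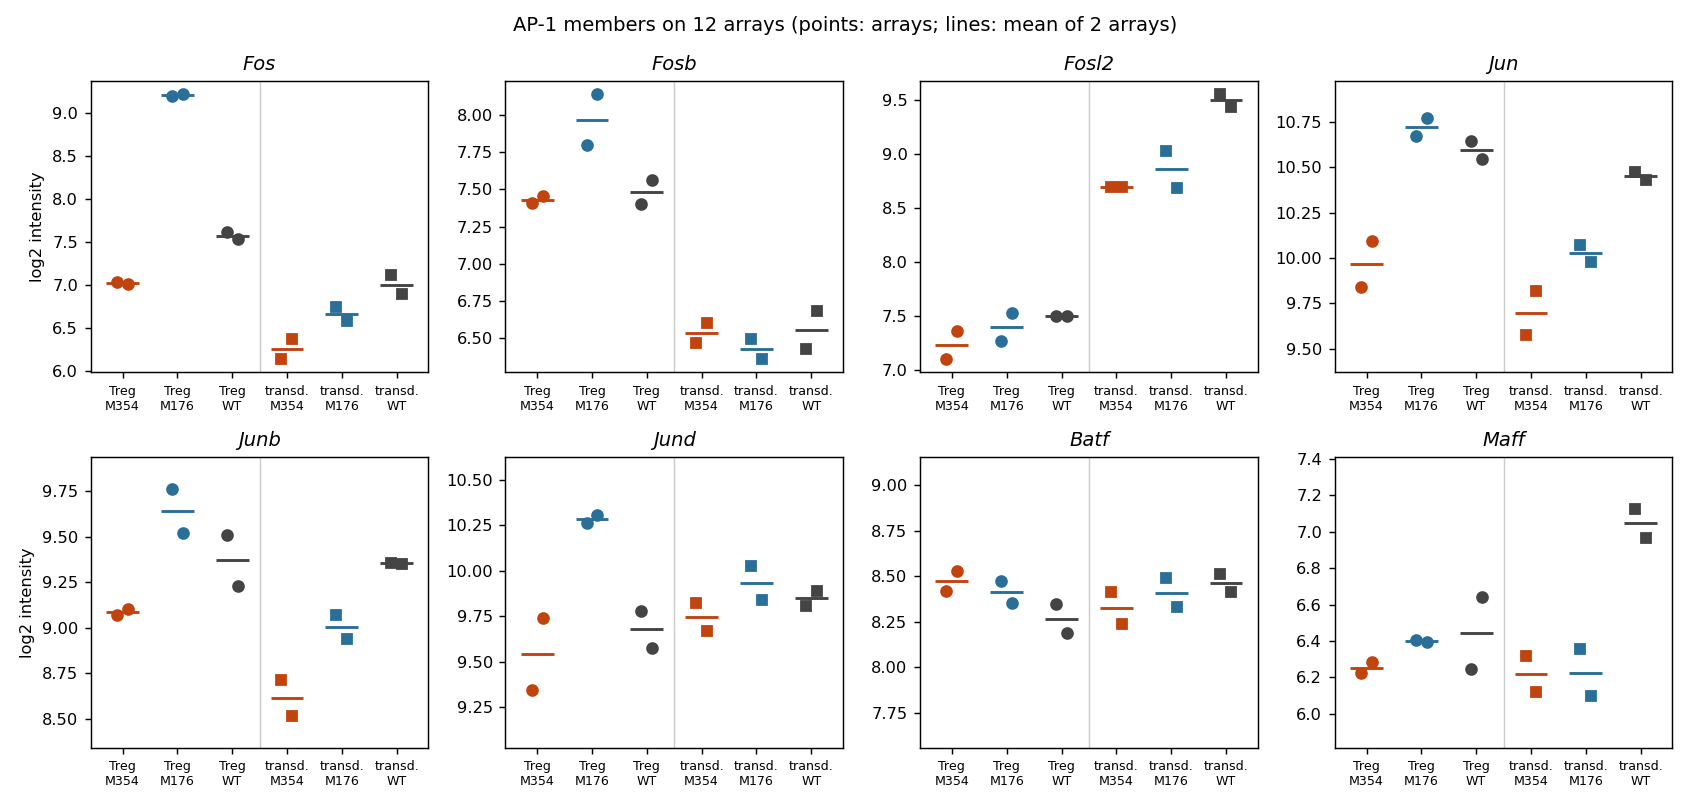
Log2 intensity of the 8 members on each of the 12 arrays, with M354, M176 and WT Tregs left of the grey line and M354-, M176- and WT-transduced cells right of it; points are arrays and lines the mean of 2 arrays. Fos stands highest in M176 Tregs at a mean of 9.20, and Fosl2 is higher in all 3 transduced groups than in Tregs.

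Each of these 5 falls lost its call when a certain array was left out, although no direction changed and 2 to 4 members stayed called. Without replicate 1 of the M354-transduced cells the limma adjusted p was 0.151 for Fos, 0.08 for Fosl2 and 0.151 for Jun, and without replicate 2 it was 0.0878 for Junb and 0.0704 for Maff. Without replicate 1 of the WT-transduced cells it was 0.0559 for Fos, and without replicate 2 of them 0.0558 for Junb. Each group here had 1 array of higher snoRNA level, so M354 and WT were set side by side with 1 array each. In these 5 genes both M354 arrays lay below both WT arrays, so the sign of each difference was fixed beforehand. The higher arrays were also not matched, at a snoRNA level of 9.64 with M354 and 9.18 with WT Foxp3. The differences are given for their size, and the part of the snoRNA level was not tested. Among the arrays of lower snoRNA level the log2 difference was -0.74 for Fos, -0.86 for Fosl2, -0.65 for Jun, -0.84 for Junb and -1.01 for Maff. Among those of higher level it was -0.75, -0.74, -0.86, -0.64 and -0.65 in the same order. The summed intensity of 7 markers of CD8+ T and NK cells was 2108 and 2136 with M354, against 1695 and 1668 with WT Foxp3. Of the 4 tested, only Klrd1 was called, with a rise of 1.06 on the log2 scale (limma adjusted p = 0.00737), and 3 were not. Over all genes tested 0.359% were called higher. The NK markers Klrb1c, Ncr1 and Klrk1 stayed below the array median on all arrays. Whether CD8+ T or NK cells had a part in the result was not tested. The summed intensity of 12 B cell genes was similar, 4699 and 4413 with M354 and 4717 and 4846 with WT Foxp3.

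**Figure D2:**
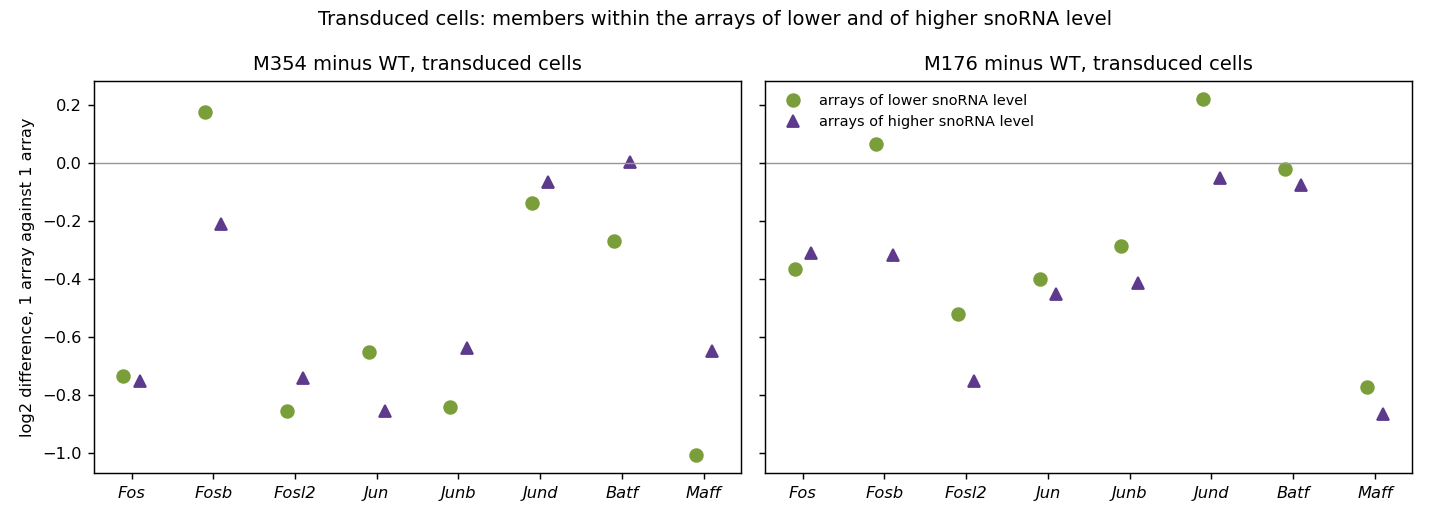
Log2 difference of each member between 1 mutant and 1 WT array of transduced cells, for M354 (left) and M176 (right), among the arrays of lower (circles) and higher (triangles) snoRNA level. Fos, Fosl2, Jun, Junb and Maff are below 0 in all 4 pairs. This sign was fixed beforehand, since both mutant arrays lay below both WT arrays in these genes. Fosb and Jund lie on both sides of 0 in M176, as do Fosb and Batf in M354.

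M176 Foxp3 in transduced cells gave 1 call among the members. Maff fell, with 81.8 and 68.5 in M176-transduced cells, against 140 and 125 in WT-transduced cells (log2 -0.82, SE 0.15, limma adjusted p = 0.0108), where 0.505% of tested genes were called lower. Since Maff passed the filter only through those WT arrays, this test is not independent of it, and 0 of the other 7 members were called in limma, of which Fos, Fosl2, Jun and Junb had an unadjusted p under 0.05 and were lower, as did 3.85% of all genes. Both M176 arrays lay below the median of their array, and the call was lost without replicate 2 of the M176 cells (adjusted p = 0.265) or replicate 1 of the WT cells (0.148). Fosl2 had 522 and 411 with M176, against 750 and 692 with WT Foxp3, and missed the threshold (log2 -0.64, SE 0.15, adjusted p = 0.0728), although it passed with cyclic loess normalization (0.0466) and with 50 added to the intensities (0.0421). Jun had 1075 and 1010, against 1420 and 1380 (log2 -0.43, 95% interval -0.71 to -0.14, adjusted p = 0.389). Junb had 537 and 490, against 656 and 653 (log2 -0.35, 95% interval -0.65 to -0.06, adjusted p = 0.69), and Fos had 107 and 95.6, against 138 and 119 (log2 -0.34, 95% interval -0.62 to -0.06, adjusted p = 0.674). In each of these genes both M176 arrays lay below both WT arrays. This separation was seen downwards in 5 of 8 members and in 16% of all genes tested. Maff, let through the filter by those WT arrays, is among the 5. The median change of the members was -0.34, against -0.01 over all genes. The values of M354 and M176 were set against the same WT arrays.

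Set against each other in transduced cells, M354 and M176 gave 0 calls among the members in limma, where 0.0785% of tested genes were called. Fos, Junb and Jun, 3 of 8 members, had an unadjusted p under 0.05 and were lower with M354, as did 1.23% of all genes tested. The log2 change was -0.41 for Fos (95% interval -0.69 to -0.13, limma adjusted p = 0.457), -0.39 for Junb (95% interval -0.68 to -0.10, adjusted p = 0.571) and -0.33 for Jun (95% interval -0.61 to -0.04, adjusted p = 0.746). In these genes and Jund both M354 arrays lay below both M176 arrays, 4 of 8 members, as in 13.1% of all genes. Maff had 79.6 and 69.6 with M354, against 81.8 and 68.5 with M176, so that the groups overlapped (log2 -0.01, 95% interval -0.32 to 0.31).

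M354 Tregs had lower Jun and Fos than WT Tregs, the 2 members called in this comparison, where 0.919% of tested genes were called lower. Jun had 918 and 1093 in M354 Tregs, against 1600 and 1494 in WT Tregs (log2 -0.63, SE 0.14, limma adjusted p = 0.0205). Fos had 131 and 129 in M354 Tregs, against 196 and 184 in WT Tregs (log2 -0.55, SE 0.13, adjusted p = 0.0429). In both genes the groups did not overlap, but neither call was firm. Fos lost its call whichever of the 4 arrays was left out (adjusted p between 0.122 and 0.213), and also with no filter (0.0501), with 50 added (0.0531) or with the replicate number as a block (0.067). Jun was not called without M354 replicate 1 (0.205), WT replicate 1 (0.146) or WT replicate 2 (0.0659).

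The other 6 members did not pass between M354 and WT Tregs. Junb had 538 and 550 with M354, against 728 and 600 with WT Foxp3, so that the groups stood apart by little (log2 -0.28, 95% interval -0.57 to 0.01). Fosl2 had 137 and 164, against 180 and 181 (log2 -0.26, 95% interval -0.57 to 0.04). Batf had the only change above 0 among the members, with 342 and 369, against 325 and 292 (log2 0.21, 95% interval -0.07 to 0.48, limma adjusted p = 0.641). Fosb, Jund and Maff overlapped between the groups, with changes of -0.05, -0.14 and -0.19. Over the members the median was -0.23, against -0.04 over all genes. The B cell transcripts of WT Treg replicate 2 stand in this comparison too, and without that array the log2 changes were -0.68 for Jun and -0.59 for Fos, with the adjusted p of Fos at 0.122.

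M176 Tregs had the highest Fos of the 6 groups. Fos had 584 and 593 in M176 Tregs, against 196 and 184 in WT Tregs, a 3.1-fold difference (log2 1.63, SE 0.13, 95% interval 1.35 to 1.91, limma adjusted p = 6.63e-07). The arrays of each group differed by little and the groups lay far apart. Fosb, which is induced by the same signals as Fos, had 223 and 282 in M176 Tregs, against 170 and 189 in WT Tregs (log2 0.49, SE 0.14, adjusted p = 0.0208). Jund, the Jun gene that resting cells already express, had 1229 and 1269, against 879 and 764 (log2 0.61, SE 0.15, adjusted p = 0.00637). These 3 of 8 members rose, where 13.4% of tested genes were called higher and 11.3% lower, and no member fell.

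Jun and Junb were not called in M176 Tregs. Jun had 1630 and 1748, against 1600 and 1494 (log2 0.13, 95% interval -0.16 to 0.41, limma adjusted p = 0.518), and Junb had 869 and 734, against 728 and 600 (log2 0.27, 95% interval -0.02 to 0.57, adjusted p = 0.163). In both genes the M176 arrays lay above the WT arrays, by less than the fit needs for a call. How many of all genes tested were separated in this way is not given here, so no rise is read from it. Fosl2 had 154 and 184, against 180 and 181 (log2 -0.10, 95% interval -0.41 to 0.21), and Maff had 84.8 and 84.1, against 76.0 and 99.8 (log2 -0.05, 95% interval -0.36 to 0.27). Batf, with 356 and 327 against 325 and 292, differed by 0.15 (95% interval -0.13 to 0.42). The median change of the members was 0.21, against -0.04 over all genes.

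**Figure D3:**
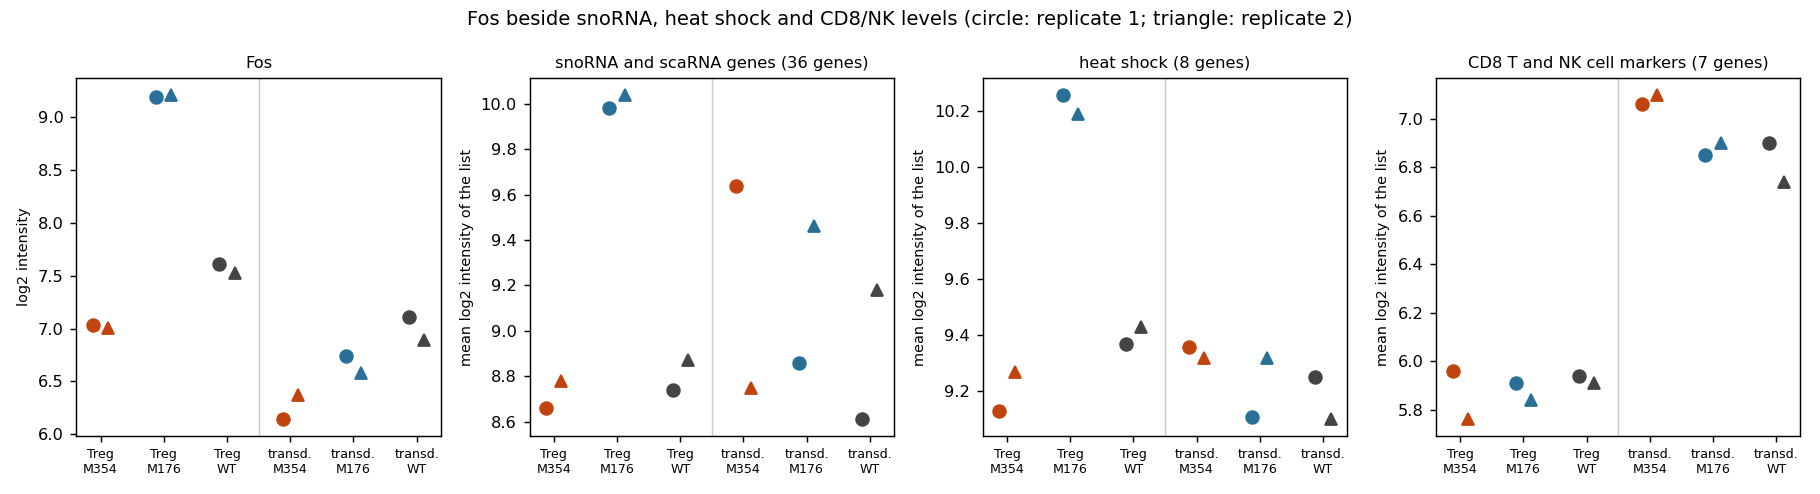
Fos (log2 intensity) beside the mean log2 intensity of 36 snoRNA and scaRNA genes, 8 heat shock genes and 7 CD8 T and NK cell markers on each array; circles are replicate 1 and triangles replicate 2. In M176 Tregs Fos, snoRNA and heat shock levels are all high, and among Tregs they cannot be told apart from M176. The transduced arrays of higher snoRNA level (9.18 to 9.64) have Fos no higher than their partner arrays. They are single arrays of another cell system, with Fos near or below the array median, and the part of snoRNA level was not tested.

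The rise of Fos went with other differences of the M176 Treg arrays. Heat shock genes differed besides the snoRNA level. The mean log2 level of 8 heat shock genes was 10.26 and 10.19 in M176 Tregs, against 9.37 and 9.43 in WT Tregs. Of these 8 genes 5 rose, Hspa1a by 2.85 (limma adjusted p = 5.44e-10), where 13.4% of all genes tested were called higher. Among transduced cells the array of higher snoRNA level had Fos at 70.5 against 82.9 for M354, 95.6 against 107 for M176 and 119 against 138 for WT Foxp3. These are single arrays of another cell system, with Fos near or below the array median. With the snoRNA level as a covariate, Fos in M176 Tregs was higher by 1.98 (SE 0.19, adjusted p = 0.000116), while Fosb at 0.50 (adjusted p = 0.285) and Jund at 0.53 (0.255) were no longer called and their SE rose to 0.24 and 0.25. This covariate was chosen after the data had been seen. Among Tregs it nearly coincides with M176, so this fit cannot tell snoRNA level, heat shock level and M176 apart there. Of 7 T cell and Treg markers tested, 4 fell in M176 Tregs, where 11.3% of all genes tested were called lower. Foxp3 fell by 0.73 (limma adjusted p = 0.000552), Gpr83 by 0.63, Cd3e by 0.48 and Il2ra by 0.48 on the log2 scale. Of 11 B cell markers 3 fell, beside the same 11.3% of all genes. The summed intensity of 12 such genes was 2205 and 2115 in M176 Tregs, against 2347 and 4785 in WT Tregs. Without WT replicate 2, which held the B cell transcripts, Fos was higher by 1.59 (adjusted p = 1.24e-05). The part of the heat shock and T cell marker levels in the rise of Fos was not tested. Fos stayed called whichever array was left out (log2 1.59 to 1.67), but Fosb was not called without M176 replicate 2 (adjusted p = 0.222) or WT replicate 1 (0.137), nor Jund without WT replicate 2 (0.065).

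Between the mutants in Tregs, 5 of 8 members were lower with M354 than with M176, where 18.1% of tested genes were called lower. Fos showed the widest difference of the members, 131 and 129 in M354 Tregs against 584 and 593 in M176 Tregs (log2 -2.18, SE 0.13, limma adjusted p = 1.7e-08). Jun had 918 and 1093, against 1630 and 1748 (log2 -0.75, adjusted p = 0.000549), and Jund had 651 and 856, against 1229 and 1269 (log2 -0.74, adjusted p = 0.00118). Junb, at 538 and 550 against 869 and 734, differed by -0.55 (adjusted p = 0.00653), and Fosb by -0.54 (adjusted p = 0.00964). Fosl2, Batf and Maff did not pass, with 95% intervals of -0.47 to 0.14, -0.22 to 0.33 and -0.46 to 0.17. Calls of Fosb were lost without M354 replicate 1 (0.0676) or M176 replicate 2 (0.136) and that of Junb without M176 replicate 1 (0.103). With the snoRNA covariate only Fos (-2.56, adjusted p = 6.95e-06) and Jun (-0.98, adjusted p = 0.0201) were called of the 8.

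**Figure D4:**
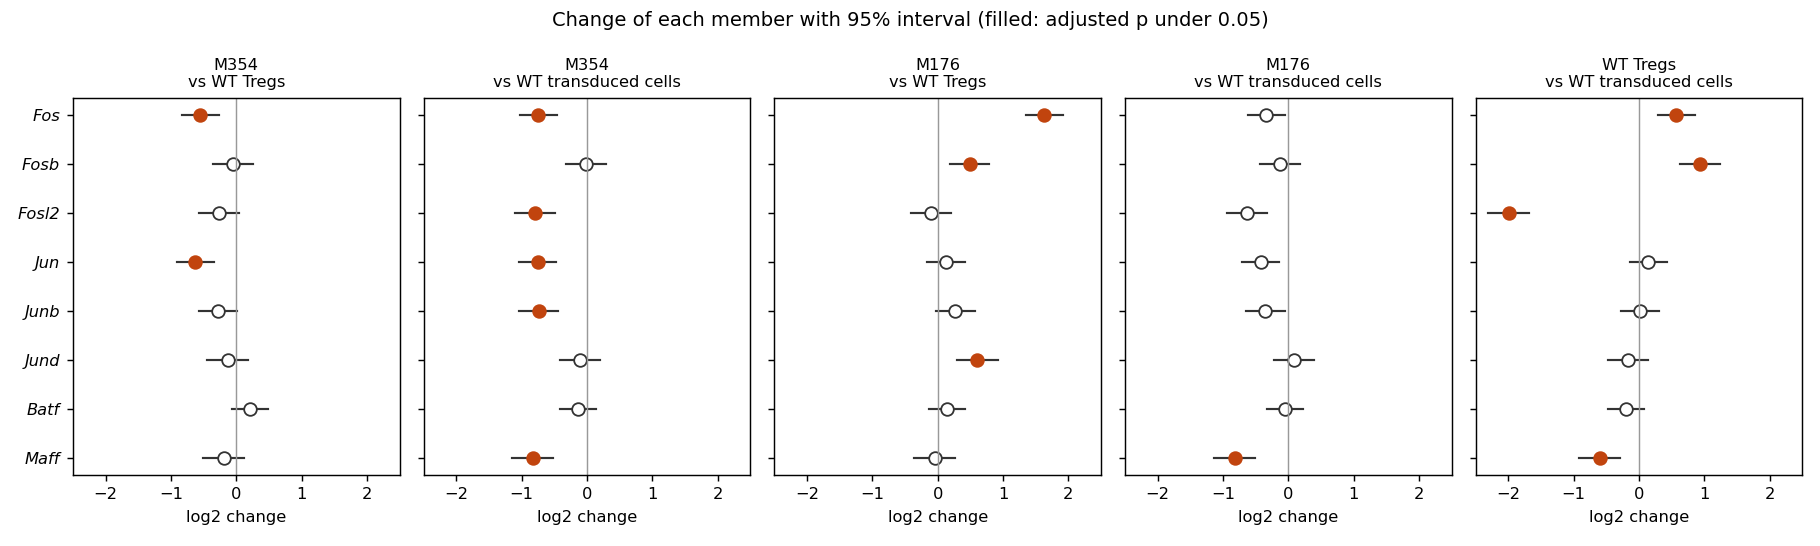
Log2 change of each member with its 95% interval from limma in 5 comparisons; filled points are called at an adjusted p under 0.05. M354 points lie at or below 0 in both cell systems except Batf in Tregs, and Fos lies at 1.63 for M176 in Tregs and at -0.34 for M176 in transduced cells.

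Whether the effect of an allele differed between Tregs and transduced cells was tested as an interaction in the same fit. For M176 it was called in Fos and Maff, 2 of 8 members, where 4.03% of tested genes were called higher. Fos differed by 1.97 on the log2 scale (SE 0.19, limma adjusted p = 2.44e-05), with a change of 1.63 in Tregs and of -0.34 in transduced cells. Maff differed by 0.78 (SE 0.21, adjusted p = 0.0401), with -0.05 in Tregs, where all 6 arrays lay below the array median, and -0.82 in transduced cells, where the WT arrays alone let it pass the filter. Without Maff, 1 of 7 members was called. The call of Maff was lost without 6 of the 8 arrays in turn (adjusted p up to 0.174), with the replicate block (0.057) and with 50 added (0.0728). Fosb, Fosl2, Jun, Junb and Jund differed by 0.53 to 0.62 in the same direction and did not pass (adjusted p from 0.0731 for Junb to 0.153 for Jund). For M354, 0 of 8 members were called in limma, where 1.08% of tested genes were. Maff, Fosl2 and Junb, 3 of 8 members, had an unadjusted p under 0.05 and a difference above 0, as did 3.51% of all genes tested. The differences were 0.64 (limma adjusted p = 0.265), 0.53 (0.428) and 0.46 (0.554). Maff passed the filter only through the WT-transduced arrays, on which its difference rests, and without it Fosl2 and Junb remain. Jun and Fos, the genes called in M354 cells of both systems, differed between the systems by 0.13 (95% interval -0.27 to 0.53) and 0.19 (95% interval -0.20 to 0.59).

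With WT Foxp3 in both, Tregs and transduced cells differed in which Fos genes they expressed. Fosl2 had 180 and 181 in WT Tregs, against 750 and 692 in WT-transduced cells (log2 -2.00, SE 0.15, limma adjusted p = 2.23e-08), and Maff had 76.0 and 99.8, against 140 and 125 (log2 -0.60, adjusted p = 0.00595), the arrays that let it pass the filter. Fosb had 170 and 189 in WT Tregs, against 86.2 and 103 in WT-transduced cells (log2 0.93, SE 0.14, adjusted p = 0.000114), having passed the filter only through Tregs, and Fos had 196 and 184, against 138 and 119 (log2 0.57, adjusted p = 0.0039). So 2 members were higher, where 10.9% of tested genes were, and 2 lower, where 19.4% were. Fosb and Maff passed the filter only through the side on which they were higher. Without them Fos alone was higher and Fosl2 alone lower, so the counts are not read as a result about the members. The Jun genes and Batf did not pass, with changes of 0.14 for Jun, 0.02 for Junb, -0.17 for Jund and -0.19 for Batf, and 95% intervals within -0.48 to 0.43. Maff was no longer called when WT Treg replicate 1 (adjusted p = 0.116) or WT-transduced replicate 1 (0.0538) was left out. Transcripts of other cell types also differed: the 7 CD8 and NK genes summed to 838 and 804 in WT Tregs against 1695 and 1668, and the 12 B cell genes to 2347 and 4785 against 4717 and 4846. Of 11 B cell markers tested, 5 were lower in WT Tregs, 5 were not called and 1, Cd72, was higher (log2 0.96, limma adjusted p = 0.000157). The part of such transcripts in the result was not tested. Without WT Treg replicate 2 the directions of the 4 called members were the same and each was called.

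The levels of a gene can be ordered over the 6 groups. Fosl2 ran from WT-transduced cells (mean 721) over M176- (467) and M354-transduced cells (414) to WT (180), M176 (169) and M354 Tregs (151), and neither the neighbouring mutants in transduced cells nor any pair of the Treg groups passed the test. Fos ran from M176 Tregs (589) over WT Tregs (190) and M354 Tregs (130) to WT- (128), M176- (101) and M354-transduced cells (76.7). Jun ran from M176 (1689) and WT Tregs (1547), which did not pass, over WT- (1400) and M176-transduced cells (1043) to M354 Tregs (1006) and M354-transduced cells (833). Differences between a mutant Treg group and a transduced group were not tested. In both systems M354 held the lowest mean of Fos, Fosl2, Jun, Junb, Jund and Maff, though not every difference passed. Batf varied least, with group means between 308 and 355, and was called in 0 of the 9 comparisons in limma, with the lowest unadjusted p at 0.0843, in the interaction for M354.

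Other basic leucine zipper genes were counted over a list chosen with earlier results of these data known, of which 10 of 16 were tested. Maf, which drives interleukin genes in effector T cells, fell in M354-transduced cells (log2 -0.75, limma adjusted p = 0.00364), the 1 call of the list there. For M354 in Tregs and for M176 in transduced cells 0 of 10 were called. In each of these comparisons at most 0.976% of all genes were called lower. In M176 Tregs 3 of 10 fell and 1 rose, where 11.3% of all genes were called lower and 13.4% higher: Maf (-1.08), Atf7 (-0.69), the repressor Bach2 (-0.68), which competes with AP-1 for its sites, and Nfe2l2 (0.44), a partner of small Maf proteins. Maf was the member of that list with a system difference for both alleles, 1.15 for M354 (adjusted p = 0.00217) and -0.68 for M176 (adjusted p = 0.0323). Fosl1, the remaining Fos gene, stayed below the array median on all arrays. Of 5 NFAT and IRF genes, Irf4 (-0.54) and Nfatc1 (-0.44) fell in M176 Tregs, and 0 were called in M354 Tregs or in either mutant of the transduced cells.

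Of 15 other immediate early genes tested, 4 rose and 1 fell in M176 Tregs, where 13.4% of all genes were called higher and 11.3% lower. The rises included Ier2 (0.78) and the activation marker Cd69 (0.72). They also included Klf2 (0.68), a factor of resting T cells, so the 4 rises are not read as 1 response. The fall was of the orphan receptor Nr4a2 (-0.49). The median of these 15 was -0.02, against -0.04 over all genes. In M354-transduced cells, where 0.976% of all genes were called lower, 1 of 15 was called, Ier3 at -0.73 (limma adjusted p = 0.0174). The list median there was -0.28 against 0.01. In M354 Tregs, where 0.919% of all genes were called lower, 0 of 15 were called, with a median of -0.16 against -0.04. Of 7 feedback genes, which encode MAP kinase phosphatases and proteins that speed decay of AU-rich mRNA such as that of Fos, Zfp36l2 fell in M354 Tregs (-0.65, adjusted p = 0.0207) and Dusp4 in M354-transduced cells (-0.65, adjusted p = 0.0483). These 2 calls stand beside 0.919% and 0.976% of all genes called lower. In M176 Tregs 2 of 7 fell, Zfp36l1 (-0.66) and Zfp36l2 (-0.46), beside 11.3% of all genes. Of 10 upstream kinases and adaptors tested, 1 fell in M176 Tregs, Sos1 (-0.53, limma adjusted p = 0.0122), near the 11.3% of all genes called lower there. In M354 Tregs and in either mutant of the transduced cells 0 were called, where at most 0.976% of all genes were called lower. With 10 genes, these counts are not read as a result about the list. Of 4 activators of Fos and Jun transcription, 1 fell in M176 Tregs, Mef2d (-0.82, limma adjusted p = 0.000371), beside the same 11.3% of all genes. Of 11 cytokine genes with AP-1 sites listed, 2 were tested. Il2, a classic target of AP-1 with NFAT, rose by 0.89 in M176 Tregs (limma adjusted p = 0.00267), where 13.4% of all genes were called higher. Tnf, the other cytokine gene tested, was not called there. The median change of the 2 genes was 0.52 in M176 Tregs and 0.55 in M354 Tregs, where 0 of 2 were called.

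The genes whose log2 intensity over the 12 arrays was most like that of a member were taken by Pearson's r, as a description, since the arrays fall into 2 cell systems. Jun and Junb both had Nfkbia, the inhibitor of NF-kB, as the most like gene (r = 0.92 for Jun and 0.91 for Junb), and Jun had Ppp1r15a, a stress-induced phosphatase subunit, among its 3 genes (0.89) beside Snx18 (0.90). Junb was followed by Gm16008 (0.90) and Zbtb7c (0.88). Fos was most like Tspan6 (0.96), 3300002I08Rik (0.95) and Praf2 (0.95), and Fosb like Flicr, a non-coding RNA next to Foxp3 (0.98), Pisd (0.98) and Gpr183 (0.97). Fosl2 was most like the glycogen synthase gene Gys1, Fam102a and the metallothionein Mt1 (all 0.98), and Jund like Mtg2 (0.95), Paxx (0.94) and Klf2 (0.94). Maff was most like the clock repressor Ciart (0.93), Arrb1 (0.86) and Hmox1 (0.85). Batf, with little spread, reached 0.84 with Syn1, 0.70 with Pdlim7 and 0.67 with St6galnac4.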

How the data were processed

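Expression was measured on 12 Affymetrix arrays, 2 for each of 6 groups taken from the sample titles. Affymetrix Power Tools and RMA are named in the submitters' processing notes, without versions. Each deposited value is a linear intensity of 1 probe set on 1 array, as its range shows. The probe set library was not given in the sources used here. Arrays have no depth, and 2 per group limit the precision.

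Of 20716 probe sets, 17703 named 1 gene, 1246 several and 1767 none in the annotation supplied. The brightest probe set stood for a gene. Log2 intensities of the 8918 genes above the array median (percentile 50) on at least 2 arrays went into limma 3.58.1 (R 4.3.3), where each group had 1 mean and there was no block. Residual degrees of freedom were 6, plus a prior worth 10.9. Each of 9 comparisons was adjusted over all genes by Benjamini-Hochberg and called under 0.05. The fit was tested on simulated data for M354 against WT Tregs. It recovered 94% of changes of log2 1 and 36% of changes of log2 0.5, so changes of the smaller size can be missed. Intervals are 95% of limma's t distribution. Named genes were the 8 members, up to 4 called genes of each list with the largest change, and the 3 genes most like each member. Members and lists were chosen with earlier results of these data known. Alternatives were quantile and cyclic loess normalization, no filter, percentile 75, the mean of probe sets, 50 added, 1 system only, a replicate block, each array left out, and the snoRNA covariate, which was added later. Promoters come from RefSeq.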

Additional observations from a re-analysis of the deposited data

Results flagged for a closer look

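Fos stands out because the effect of M176 differed between the cell systems by the test of the difference itself. The interaction was 1.97 on the log2 scale (limma adjusted p = 2.44e-05). In Tregs the change was 1.63 and called, and in transduced cells it was -0.34 and not called (limma adjusted p = 0.674). Maff stands out by the same test, at 0.775 (adjusted p = 0.0401), a call that leaving out 6 of 8 arrays in turn ended. Maff passed the filter only through the WT-transduced arrays, on which this difference rests, so its test is not independent of the filter.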

How the results depend on the processing

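With 2 arrays per group, leaving out 1 array bears on most calls and is the main limit, and Maff outside WT-transduced cells, Fosb in transduced cells and Fos in M354-transduced cells lay below the array median. No background level was measured. Only the rise of Fos in M176 Tregs and its interaction were called under every setting tried, along with Fos and Jun between the mutants in Tregs and Fos and Fosl2 between the WT groups. For the M176 Treg arrays the snoRNA covariate is no independent check. Among Tregs it nearly coincides with M176, and its slope rests mostly on the transduced arrays. Fosb between the WT groups was called wherever it was tested, which percentile 75 prevented. The number of members called between M354 and WT Tregs was 1 with no filter, 1 with the replicate block and 1 with 50 added. Replicate numbers did not pair the arrays (correlation of deviations between groups -0.551 to 0.25, over 0.1 in 3 of 15 pairs), and the block also left 1 call in the M176 interaction. Between M176- and WT-transduced cells it was 2 with cyclic loess, 2 with 50 added and 0 at percentile 75, where Fosb and Maff were filtered out. In the M176 interaction it was 1 with percentile 75, 50 added or the snoRNA covariate, and between the WT groups 2 at percentile 75. With the covariate it was 1 between M176 and WT Tregs and 2 between the mutants in Tregs, while the calls over all genes were 364 against 2206 without it and 570 against 2747. The cause of each change was not tested except for the filtered genes.

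Leaving out 1 array gave 0 to 1 members called between M354 and WT Tregs, 2 to 3 between M176 and WT Tregs, 4 to 5 between the mutants in Tregs, 2 to 4 and 0 to 1 for M354 and M176 in transduced cells, 1 to 2 in the M176 interaction and 3 to 4 between the WT groups. Among changes that were not called, some turned sign. With quantile normalization Maff was at 0.063 between M176 and WT Tregs and 0.035 between the transduced mutants, Fosb at 0.004 between M354- and WT-transduced cells, and Fos at -0.026 and Jund at 0.07 in the M354 interaction. With cyclic loess Maff was at 0.075 and 0.044 and Jund at 0.093 in the same comparisons, and with the covariate Fosl2 was at 0.081 between M176 and WT Tregs. Without 1 array, log2 changes ran between M354 and WT Tregs from -0.333 to 0.062 for Jund, -0.13 to 0.026 for Fosb and -0.388 to 0.005 for Maff. For M176 Tregs they ran from -0.225 to 0.027 for Fosl2 and -0.242 to 0.151 for Maff, between the mutants in Tregs from -0.004 to 0.119 for Batf, and between the WT groups from -0.124 to 0.154 for Junb. In transduced cells they ran from -0.143 to 0.107 for Fosb with M354, and with M176 from -0.013 to 0.178 for Jund and -0.128 to 0.028 for Batf. Between the transduced mutants they ran from -0.333 to 0.011 for Fosl2, -0.17 to 0.004 for Batf and -0.136 to 0.12 for Maff, and in the M354 interaction from -0.158 to 0.091 for Fosb and -0.229 to 0.166 for Jund.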
